A study of Mus musculus with 10 samples.

Results

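Skeletal muscle that is suddenly made to carry more load passes through an early phase of stress, inflammation and cell division before its fibres grow. The transcripts of the mouse plantaris, a fast muscle of the calf, were compared here between 10 d and 3 d of such overload. Overload was brought about by synergist ablation, surgery that takes away muscles sharing the work of the plantaris. The comparison rests on 2 pools after 10 d of overload and 2 pools after 3 d of overload, chosen by their sample titles, and all 4 came from male C57BL/6 mice that were given no drug against platelet-derived growth factor (PDGF) signalling. They are 4 of the 10 pools of the series. The others are 2 pools after 10 d and 2 pools after 3 d of overload with that inhibitor, and 2 pools of plantaris without overload, all of the same strain and sex. Each pool held equal amounts of RNA from 4 muscles. The sources used here give neither the ages of the mice nor the inhibitor's name. Nothing says that pools of 1 group held different animals, so the p-values cover the spread among pools alone, which may be technical.

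In overloaded muscle, stressed fibres and resident cells release chemokines that draw monocytes and neutrophils from the blood, and the monocytes become macrophages that clear debris and then support repair. Satellite cells, the stem cells of muscle, divide, switch on the myogenic factors Myod1 and Myog and fuse with fibres, while fibroblasts and fibro-adipogenic progenitors lay down collagen. Fibres under new load also rebuild their contractile, metabolic and protein-quality machinery, and a slower set of contractile proteins often replaces a faster one when the muscle is used more.

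Expression was read from Affymetrix Mouse Gene 2.1 ST arrays as log2 values, with 1 probe set for each of 22180 genes (the brightest where a gene had several). Levels below are these log2 values, a change is the 10 d mean minus the 3 d mean, and ± is its standard error from a limma fit over all 10 pools. A gene was called at a Benjamini-Hochberg adjusted p under 0.05. With 2 pools against 2, an exact two-sided permutation test of 1 gene cannot give a p under 0.333, so no gene was tested that way. Across genes, the 10 d pools correlated at r = 0.989, the 3 d pools at r = 0.991, and a 10 d with a 3 d pool at r = 0.978 to 0.983. The labelled tissue, a fast muscle, had bright fast fibre genes in every pool, with Actn3, the alpha-actinin of fast fibres, at 12.06 and 12.07 at 10 d and 11.50 and 11.51 at 3 d.

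Pool 1 of 3 d overload stood apart from its partner. It held transcripts of granulocyte precursors, cells of bone marrow, that the other 3 pools had near the lower end of the scale. Elane, neutrophil elastase, had 1.05 and 1.01 at 10 d, against 5.21 in pool 1 and 1.37 in pool 2 at 3 d. Mpo, myeloperoxidase, had 1.37 and 1.22 at 10 d, against 5.02 and 1.33 at 3 d. The granule protein Ngp had 1.47 and 1.5 at 10 d, against 6.89 and 1.35 at 3 d. Over the 16 neutrophil genes measured, the mean level was 1.86 and 1.68 at 10 d and 4.84 and 2.13 at 3 d. The red cell anion exchanger Slc4a1 was also high in that pool, with 3.04 and 1.55 at 10 d against 4.91 and 1.80 at 3 d. Pool 2 of 10 d overload in turn had more transcript of matrix genes than pool 1, as in aggrecan (Acan), a cartilage proteoglycan, with 2.07 and 6.06 at 10 d against 2.31 and 2.25 at 3 d. Many counts below are also given without single pools.

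**Figure D1:**
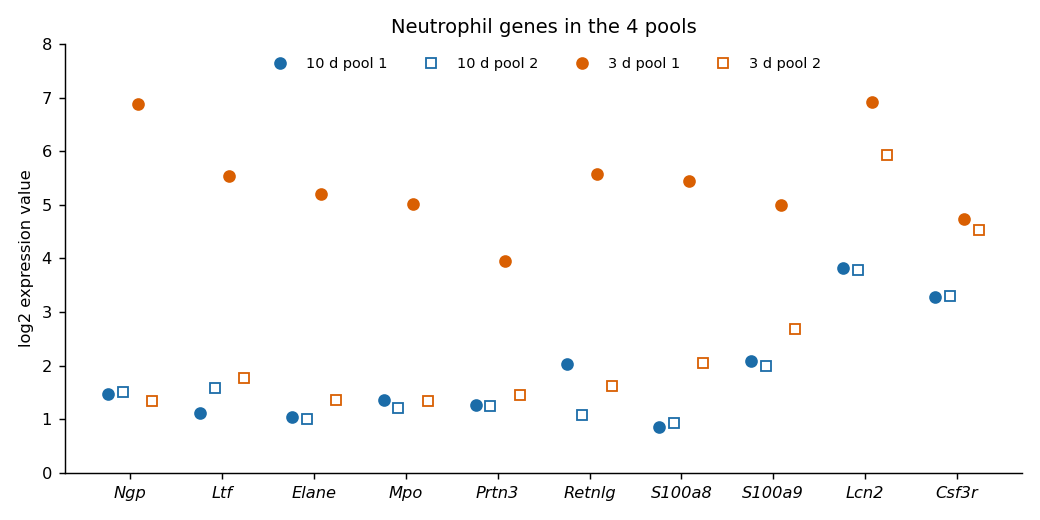
Log2 expression values (vertical axis) of 10 neutrophil genes (horizontal axis) in the 2 pools of 10 d overload (blue) and the 2 pools of 3 d overload (orange), filled circles for pool 1 and open squares for pool 2. For Ngp, Ltf, Elane, Mpo, Prtn3, Retnlg, S100a8 and S100a9 pool 1 of 3 d lies far above the other 3 pools, while for Lcn2 and Csf3r both 3 d pools lie above both 10 d pools.

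Between 10 d and 3 d of overload, 1348 of 22180 genes (6.08%) were called, 598 higher (2.7%) and 750 lower (3.38%) at 10 d. Of the called genes, 231 were at least 2-fold higher and 387 at least 2-fold lower, and 20 and 43 passed 4-fold. The median over all genes was a change of 0.01. Pools of the groups did not overlap for any called gene, but this was also so for 24.6% of all genes in the higher and 24.2% in the lower direction. The count fell whichever single pool was left out. Leaving out a pool leaves 1 pool in its group and widens the standard error, so calls can be lost where the change does not move. Actn3 stayed between 0.55 and 0.56 whichever pool was left out and still lost its call. A call lost below thus need not mean that 1 pool carried the change. With only these 4 pools in the fit the count of called genes was 202, of which 198 were among the 1348. Counts of called members below stand beside the 6.08% called over all genes. Of the 43 gene lists described below, 36 had a call over all pools. With only the 4 pools in the fit, 17 of these 36 had none, namely the lists of the unfolded protein response, ribosome biogenesis, MHC class II, fibrillar matrix, elastic fibre, basement membrane, collagen maturation, matrix proteases, fast fibre, oxidative phosphorylation, tricarboxylic acid cycle, fatty acid oxidation, atrophy and autophagy, clock, TGF-beta, endothelial and adipocyte genes.

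The largest falls were of single genes of different roles. Sprr1a, a protein of the cell envelope that injured nerve and muscle switch on, had 1.57 and 2.71 at 10 d, against 7.53 and 7.91 at 3 d. Both 10 d pools lay far below both 3 d pools and near the lower end of the scale, so the change has no exact fold (log2 -5.58 ± 0.33, limma adjusted p = 9.48e-04). Next came the chemokine Ccl2 with 1.64 and 3.88 at 10 d, against 7.04 and 6.11 at 3 d, a fall by 3.81 ± 0.62 whose 10 d pools were unequal. It ranged from -4.93 to -2.70 when single pools were left out and was lost without 3 d pool 1. Cgref1, a calcium-binding secreted protein, fell by 3.00 ± 0.56, and ranged from -4.09 to -1.91, lost without either 3 d pool. Rrad, a small GTPase that restrains calcium channels, fell by 2.85 ± 0.44 (lost without either 3 d pool or 10 d pool 1). Sntb1, a syntrophin of the dystrophin complex, had 6.83 and 7.03 at 10 d, against 9.65 and 9.82 at 3 d (-2.80 ± 0.20). Cks2, a subunit of cyclin-dependent kinases, had 2.52 and 2.38 at 10 d, against 5.53 and 4.82 at 3 d (-2.73 ± 0.23), and a dimmer probe set of this gene gave -1.04. The chemokine receptor Ccr1 fell by 2.70 ± 0.26, Sirpb1c, a membrane protein of myeloid cells, by 2.68 ± 0.40 (lost without 3 d pool 2 or 10 d pool 1), and Fsip1 by 2.42 ± 0.21. Ccr1 and Fsip1, like Sprr1a, Sntb1 and Cks2, were called whichever pool was left out.

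The largest rises were likewise of genes of different roles. Ky, a protease-like protein that maintains muscle fibres, had 8.12 and 8.0 at 10 d, against 4.69 and 5.59 at 3 d (log2 2.92 ± 0.31, 7.54-fold, adjusted p = 0.00328). Klhl33, a kelch-like protein, had 7.20 and 7.07 at 10 d, against 4.20 and 4.44 at 3 d (2.81 ± 0.26). Snai3, a zinc finger repressor, had 5.80 and 5.31 at 10 d, against 2.6 and 3.01 at 3 d (2.75 ± 0.30). Groups were well apart for all 3, and each was called whichever pool was left out, as were Gbp10, a guanylate-binding protein (2.36 ± 0.32), Adamtsl4, which binds fibrillin (2.17 ± 0.18), and Aqp4, the water channel of fast fibre membranes (2.13 ± 0.24). Lrrc38, an auxiliary subunit of potassium channels, rose by 2.23 ± 0.31 and was lost without 3 d pool 1. Cyp4f39, a fatty acid hydroxylase (2.25 ± 0.44), Dupd1, a dual-specificity phosphatase of muscle (2.40 ± 0.58), and Lrp2bp, which binds the receptor megalin (2.13 ± 0.41), passed over all pools but were each lost without 3 of the 4 pools or more. Dupd1 ranged from 1.78 to 3.01 and Lrp2bp from 1.45 to 2.81 when single pools were left out.

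Values against muscle without overload are set beside these changes, from comparisons that share the 3 d or the 10 d pools with the main one. In them 3881 genes (17.5%) were called at 3 d and 1138 (5.13%) at 10 d. Ky was 2.95 lower at 3 d (adjusted p = 5.84e-04) and 0.03 lower at 10 d than without overload (adjusted p = 0.968). Adamtsl4 and Aqp4 were 2.09 and 2.52 lower at 3 d, and differed by 0.08 and -0.39 at 10 d without passing. Tnfrsf12a, the receptor of the cytokine TWEAK, was 2.81 higher at 3 d and differed by -0.03 at 10 d, and Sntb1 was 2.48 higher at 3 d and differed by -0.32 at 10 d. Tenomodulin (Tnmd) differed by 0.00 at 3 d and was 2.63 higher at 10 d, and insulin-like growth factor 2 (Igf2) was 0.69 higher at 3 d and 2.77 higher at 10 d.

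**Figure D2:**
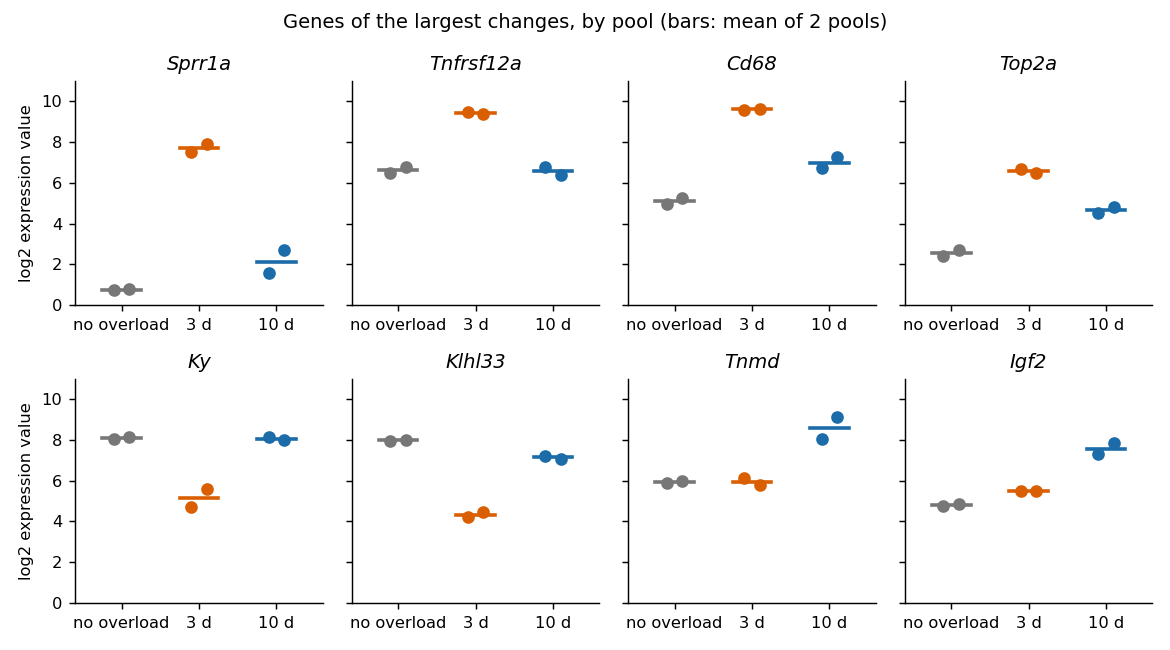
Log2 expression values (vertical axis) of 8 genes in plantaris without overload (grey), after 3 d (orange) and after 10 d of overload (blue). Points are single pools and bars the mean of 2 pools. Sprr1a, Tnfrsf12a, Cd68 and Top2a are highest at 3 d, Ky and Klhl33 are lowest at 3 d, and Tnmd and Igf2 are highest at 10 d.

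Genes of mitosis gave more falls than any other of the 43 lists. Of 31 genes of mitosis and cytokinesis, 24 fell and none rose, with a median change of -1.43. In all 31 both 10 d pools lay below both 3 d pools, against 24.2% of all genes. Top2a, the topoisomerase that untangles replicated chromosomes, had 4.50 and 4.80 at 10 d, against 6.66 and 6.49 at 3 d (-1.93 ± 0.19, adjusted p = 0.00260). Cenpe, a kinetochore motor, had 3.74 and 3.52 at 10 d, against 5.53 and 5.57 at 3 d (-1.92 ± 0.17). Prc1, which bundles microtubules of the dividing spindle, had 4.97 and 4.55 at 10 d, against 6.24 and 6.42 at 3 d (-1.57 ± 0.19). These 3 were called whichever pool was left out. The guanine nucleotide exchange factor Ect2 (-2.17 ± 0.47), which starts cleavage of the cell, the mitotic kinase Plk1 (-2.06 ± 0.30) and the kinetochore protein Ndc80 (-1.62 ± 0.36) also fell. So did the proliferation marker Mki67, with 5.62 and 5.66 at 10 d against 7.30 and 7.14 at 3 d, and the mitotic cyclin Ccnb2, with 5.36 and 5.39 at 10 d against 7.04 and 6.66 at 3 d. Ect2, Plk1, Ndc80, Mki67 and Ccnb2 lost their calls without 3 d pool 1, and Ect2 and Ndc80 also without 3 d pool 2 or 10 d pool 1 (adjusted p up to 0.168). The number of mitosis genes called was then 7, against 13 without 3 d pool 2, 12 without 10 d pool 1 and 17 without 10 d pool 2, all lower. The 10 d levels stayed above those without overload, by 3.02 in Mki67 and 2.88 in Ccnb2, where the 3 d levels had been 4.59 and 4.35 higher. In bulk RNA, fewer cells of a type and less RNA per cell cannot be told apart.

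DNA replication genes moved the same way by less. Of 27 measured, 6 fell and none rose, with a median of -0.55, and all 27 changes were negative. Mcm5, a subunit of the replicative helicase, had 3.37 and 3.89 at 10 d, against 5.38 and 5.57 at 3 d (-1.84 ± 0.19), and cyclin A2 (Ccna2) had 4.60 and 4.61 at 10 d, against 6.31 and 6.01 at 3 d (-1.56 ± 0.15). Both kept their calls whichever pool was left out. Rrm2, which makes deoxynucleotides, fell by 1.29 ± 0.31, although a dim second probe set of it gave 0.01. The helicase subunit Mcm6 (-0.88), thymidine kinase Tk1 (-0.78) and the sliding clamp Pcna (-0.62) fell by less, and these last 4 lost their calls whichever pool was left out (adjusted p up to 0.205). Without single pools 2 or 3 members were called.

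Because the mitosis genes moved together, their promoters were read from RefSeq (GRCm38.p6) as windows of 250 bases before and 50 bases after the start. The motifs searched on both strands were the cell cycle genes homology region (CHR, TTTGAA), bound by repressors of cell cycle genes in resting cells, and the CCAAT box (CCAAT), bound by NF-Y. Of the 24 mitosis genes that fell, 21 had a window, and 18 of them (85.7%) held TTTGAA, against 17.8% of 16990 genes. CCAAT stood in 17 (81.0%), against 41.6% of these genes. Among all 27 mitosis genes with a window the shares were 77.8% and 74.1%. Of the 5 replication genes that fell and had a window, none held TTTGAA and 4 held CCAAT, and over 22 replication genes with a window the shares were 13.6% and 68.2%. Shown with both motifs in capitals are 2 mitosis promoters, Ccnb2 (chr9:70421505-70421804, minus strand) and Plk1 (chr7:122159185-122159484, plus strand), and for comparison the replication promoter Mcm5 (chr8:75109259-75109558, plus strand), which holds CCAAT alone. A match of letters is a description and does not show that a factor bound there.
Ccnb2: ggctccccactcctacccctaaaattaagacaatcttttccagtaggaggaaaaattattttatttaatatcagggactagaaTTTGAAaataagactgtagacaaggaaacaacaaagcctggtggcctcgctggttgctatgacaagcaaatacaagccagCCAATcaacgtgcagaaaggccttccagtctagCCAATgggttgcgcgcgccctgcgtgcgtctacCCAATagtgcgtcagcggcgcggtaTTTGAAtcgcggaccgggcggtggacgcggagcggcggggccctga
Plk1: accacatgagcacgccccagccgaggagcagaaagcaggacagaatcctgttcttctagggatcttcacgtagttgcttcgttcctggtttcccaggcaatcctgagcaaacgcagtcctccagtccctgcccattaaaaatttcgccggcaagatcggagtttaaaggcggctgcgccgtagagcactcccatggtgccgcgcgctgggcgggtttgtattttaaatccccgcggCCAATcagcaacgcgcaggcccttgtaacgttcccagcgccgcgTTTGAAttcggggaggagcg
Mcm5: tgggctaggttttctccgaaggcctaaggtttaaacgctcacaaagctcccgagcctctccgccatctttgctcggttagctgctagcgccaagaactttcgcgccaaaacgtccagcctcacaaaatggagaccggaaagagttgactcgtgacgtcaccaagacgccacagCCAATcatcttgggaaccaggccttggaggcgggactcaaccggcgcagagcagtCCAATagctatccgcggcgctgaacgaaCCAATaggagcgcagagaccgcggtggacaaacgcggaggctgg

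The Ccnb2 window held 3 CCAAT boxes and 2 copies of TTTGAA, and that of Plk1 held 1 of each.

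Some genes of the early stress and injury list fell as well. Of 19 genes of early stress and injury, 8 fell and none rose (median -1.18). Tnfrsf12a had 6.79 and 6.39 at 10 d, against 9.50 and 9.37 at 3 d (-2.84 ± 0.25, 7.18-fold). The stress transcription factor Atf3 had 7.26 and 6.51 at 10 d, against 9.53 and 9.28 at 3 d (-2.52 ± 0.27). Metallothionein 2 (Mt2), a metal-binding protein, had 8.62 and 9.11 at 10 d, against 10.73 and 10.78 at 3 d (-1.89 ± 0.19). All 3 were called whichever pool was left out, as was Hbegf, a ligand of the EGF receptor (-1.69 ± 0.17). Heme oxygenase (Hmox1), which degrades heme, fell by 1.81 ± 0.33, with 3 d values of 8.14 and 7.15, and was lost without 3 d pool 1 or either 10 d pool (adjusted p up to 0.0910). Myc, a transcription factor of growth, had 5.88 and 6.29 at 10 d, against 7.78 and 7.12 at 3 d, and did not pass (adjusted p = 0.0612). Without 3 d pool 1, 5 members of the list were called, all lower, with a median of -0.72. Without 3 d pool 2, 10 were called, with a median of -1.57, and without the 10 d pools 6 or 8.

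Chaperones of more than 1 compartment fell. Of 11 heat shock genes, the mitochondrial Hspe1 and Hspd1 among them and the others of the cytosol, 6 fell (median -1.01). All 11 had both 10 d pools below both 3 d pools, against 24.2% of all genes. The small heat shock protein Hspb1 had 7.43 and 7.22 at 10 d, against 9.29 and 9.16 at 3 d (-1.90 ± 0.17), and was called whichever pool was left out. Cryab, the crystallin that protects desmin filaments, had 9.94 and 9.86 at 10 d, against 11.04 and 10.96 at 3 d (-1.10 ± 0.14), and a dimmer probe set of it gave -2.0. Hsp90aa1 (-1.24 ± 0.23), Hsph1 (-1.06 ± 0.15), the mitochondrial co-chaperonin Hspe1 (-1.01 ± 0.18) and Hspa1a (-0.91 ± 0.22) fell too. In the list for the unfolded protein response and secretion (20 genes), 10 fell and 1, Herpud1, rose (median -0.54). The call of Herpud1 was lost whichever pool was left out. Hspa5, the chaperone BiP of the endoplasmic reticulum, had 6.89 and 7.19 at 10 d, against 8.06 and 7.99 at 3 d (-0.98 ± 0.16). The transcription factor Xbp1 had 6.77 and 6.79 at 10 d, against 7.62 and 7.56 at 3 d (-0.81 ± 0.12), and Sdf2l1 (-1.40 ± 0.31), the disulfide isomerase Pdia6 (-0.83 ± 0.18), Hyou1 (-0.79 ± 0.19) and Hsp90b1 (-0.73 ± 0.14) fell as well. Hspa5 was 0.74 and Xbp1 0.75 higher at 3 d than without overload, and their differences at 10 d, -0.25 and -0.06, did not pass. Calls in these lists were sensitive to 3 d pool 1: without it 1 of 11 heat shock genes and 0 of 20 unfolded protein response genes were called by limma, with medians of -0.99 and -0.49. Without the other pools the counts were 3 or 4 heat shock genes and 1 to 7 unfolded protein response genes.

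Promoter windows of these chaperones were searched for 2 motifs chosen after the values were seen. The endoplasmic reticulum stress element (ERSE), bound by NF-Y with ATF6, stood in 5 of 9 unfolded protein response genes that fell and had a window (55.6%), namely Canx, Creld2, Hsp90b1, Hspa5 and Pdia6, against 0.171% of 16990 genes. It overlaps the CCAAT box by construction. A heat shock element, bound by heat shock factor 1, stood in 2 of 4 heat shock genes that fell and had a window, Hspe1 and Hsph1, against 0.63% of genes. Over all measured members with a window the shares were 38.9% for ERSE and 37.5% for the heat shock element. The windows of Hspa5 (chr2:34771840-34772139, plus strand), Pdia6 (chr12:17266339-17266638, plus strand) and Hspe1 (chr1:55087898-55088197, plus strand) are printed with these motifs in capitals. In Hspe1 a match on each strand overlaps the other.
Hspa5: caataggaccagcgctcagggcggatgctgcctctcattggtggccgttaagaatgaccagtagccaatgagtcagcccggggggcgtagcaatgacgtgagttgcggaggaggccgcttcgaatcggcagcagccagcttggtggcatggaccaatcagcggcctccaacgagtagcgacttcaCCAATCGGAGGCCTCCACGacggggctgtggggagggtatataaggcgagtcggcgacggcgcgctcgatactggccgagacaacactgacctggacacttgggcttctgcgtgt
Pdia6: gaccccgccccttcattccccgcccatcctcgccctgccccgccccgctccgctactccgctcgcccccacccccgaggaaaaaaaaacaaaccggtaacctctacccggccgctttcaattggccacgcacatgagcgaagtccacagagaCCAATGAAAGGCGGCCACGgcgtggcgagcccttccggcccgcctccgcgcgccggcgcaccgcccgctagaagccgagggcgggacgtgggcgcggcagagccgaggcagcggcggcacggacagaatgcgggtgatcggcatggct
Hspe1: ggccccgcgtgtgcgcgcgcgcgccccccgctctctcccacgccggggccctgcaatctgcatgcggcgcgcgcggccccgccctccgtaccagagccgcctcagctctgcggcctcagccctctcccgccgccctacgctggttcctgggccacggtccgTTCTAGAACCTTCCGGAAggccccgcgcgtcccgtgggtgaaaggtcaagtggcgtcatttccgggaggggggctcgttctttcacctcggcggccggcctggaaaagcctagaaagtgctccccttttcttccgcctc

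Some genes for building ribosomes and a few for making serine and one-carbon units fell. Of 27 ribosome biogenesis genes, 7 fell and 26 of the changes were negative (median -0.42). The box C/D protein Nop58 had 6.37 and 6.51 at 10 d, against 7.22 and 7.52 at 3 d (-0.93 ± 0.19), and the RNA helicase Ddx21 had 6.90 and 6.89 at 10 d, against 7.69 and 7.71 at 3 d (-0.80 ± 0.12). Rrp12 (-0.81), nucleostemin (Gnl3, -0.78), Noc2l (-0.75) and Nip7 (-0.69) fell likewise. No ribosome gene was called without 3 d pool 1 or without 3 d pool 2, and 2 and 3 were called without 10 d pool 1 and 10 d pool 2, while the median stayed between -0.47 and -0.39. Of 17 genes of serine, asparagine and one-carbon synthesis, Psat1, Mthfd2 and Asns fell and Chac1 rose, and the median was -0.26. Psat1, an enzyme of serine synthesis, had 2.6 and 3.27 at 10 d, against 5.56 and 5.30 at 3 d (-2.49 ± 0.22), and kept its call whichever pool was left out. Mthfd2, the mitochondrial folate enzyme, had 4.60 and 4.77 at 10 d, against 6.92 and 7.10 at 3 d (-2.32 ± 0.32). Chac1, which degrades glutathione, had 5.89 and 6.07 at 10 d, against 3.63 and 3.99 at 3 d (2.17 ± 0.30). Mthfd2 and Chac1 were lost without 3 d pool 1, and Asns, asparagine synthetase (-0.74 ± 0.17), whichever of the 4 pools was left out (adjusted p up to 0.202).

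**Figure D3:**
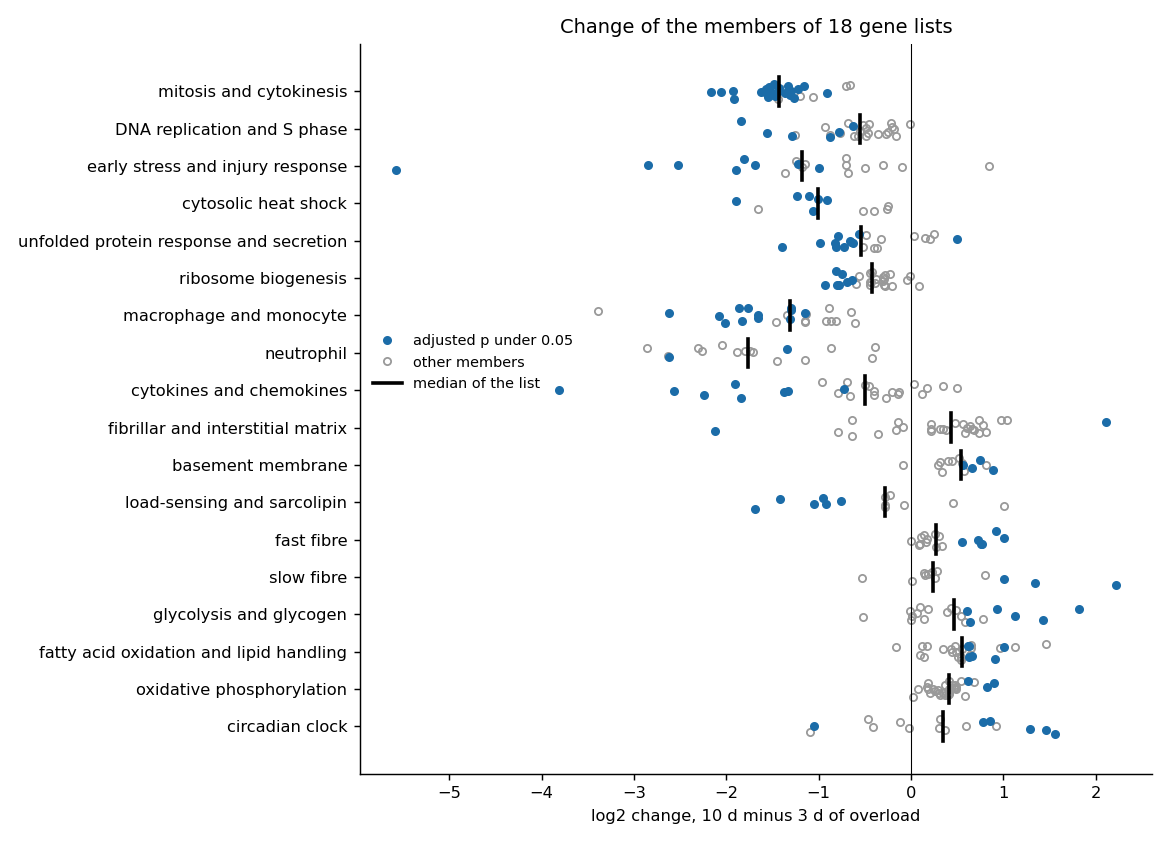
Change between 10 d and 3 d of overload (horizontal axis, log2, 10 d minus 3 d) of the members of 18 gene lists (rows). Filled blue points passed at an adjusted p under 0.05, open grey points did not, and black bars mark the list medians, from -1.77 for the neutrophil list to 0.55 for fatty acid oxidation.

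Macrophage transcripts were lower at 10 d than at 3 d, while most of those of antigen presentation did not pass. Of 24 macrophage and monocyte genes, 12 fell and none rose (median -1.31). In 23 both 10 d pools lay below both 3 d pools, against 24.2% of all genes. The list's mean level was 4.97 and 5.57 at 10 d and 6.95 and 6.49 at 3 d. Cd68, a lysosomal glycoprotein of macrophages, had 6.71 and 7.29 at 10 d, against 9.60 and 9.64 at 3 d (-2.62 ± 0.20, 6.15-fold, adjusted p = 0.00212). The monocyte chemokine receptor Ccr2 had 4.15 and 4.78 at 10 d, against 6.51 and 6.58 at 3 d (-2.08 ± 0.22). The integrin subunit Itgam had 5.29 and 5.57 at 10 d, against 7.45 and 7.06 at 3 d (-1.83 ± 0.18). These 3 were called whichever pool was left out. The scavenger receptor Msr1 (-2.01 ± 0.29), Gpnmb, a membrane protein of lipid-laden macrophages (-1.86 ± 0.34), and arginase (Arg1, -1.76 ± 0.32) fell too, and lost their calls without 3 d pool 1 (adjusted p up to 0.113). Gpnmb was also lost without 3 d pool 2 or 10 d pool 1, and Arg1 without 10 d pool 1. Arg1 had 3 d values of 4.44 and 3.44. C1qa, a complement subunit of resident macrophages, had 6.15 and 6.69 at 10 d, against 7.25 and 6.80 at 3 d, and did not pass (adjusted p = 0.161). Without 3 d pool 1, 5 macrophage genes were called, without 3 d pool 2 9, without 10 d pool 1 6 and without 10 d pool 2 15, all lower. At 10 d the list was still above muscle without overload, with 16 of 24 members higher (3.9% of all genes were) and a median of 1.59. At 3 d, 22 were higher (9.31% of all genes) with a median of 2.94.

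Of 8 genes of MHC class II presentation, the protease Ctss fell, with 6.79 and 7.94 at 10 d against 9.54 and 9.11 at 3 d (-1.96 ± 0.33, lost without 3 d pool 1 at an adjusted p of 0.0911). The class II chains H2-Aa (0.27 ± 0.25) and H2-Ab1 (0.10 ± 0.20) did not pass. H2-Ab1 had 7.50 and 8.10 at 10 d, against 7.80 and 7.59 at 3 d, with groups that overlapped, and it was 1.84 higher at 3 d and 1.94 higher at 10 d than without overload. The costimulatory receptor Cd86 (-0.87 ± 0.22) and the class II activator Ciita (0.32 ± 0.38) were not called either. Ctss, the 1 call, is 12.5% of the list, against 6.08% of all genes.

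Chemokines of monocytes fell most among 25 cytokines and chemokines, of which 8 fell and none rose (median -0.50). Besides Ccl2, Ccl6 had 3.93 and 4.52 at 10 d, against 7.04 and 6.53 at 3 d (-2.56 ± 0.25), and Ccl7 had 3.41 and 3.88 at 10 d, against 6.14 and 5.64 at 3 d (-2.24 ± 0.27). Both were called whichever pool was left out. The neutrophil attractant Cxcl5 (-1.91 ± 0.26) and the macrophage chemokine Ccl9 (-1.84 ± 0.25) were lost without 3 d pool 1, and Il1b, a cytokine of inflammation (-1.37 ± 0.33), whichever of the 4 pools was left out (adjusted p up to 0.228). Ccl8, a monocyte attractant, had 4.43 and 5.26 at 10 d, against 5.0 and 4.64 at 3 d, with overlapping groups. It was 2.28 higher at 3 d and 2.31 higher at 10 d than without overload. Without single pools 3 to 7 members were called, fewest without 3 d pool 1.

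Neutrophil genes gave a large median and few calls (12.5% of the list, against 6.08% of all genes). Of 16 measured, Lcn2 and Csf3r fell, and the median of -1.77 became -0.27 without 3 d pool 1 and -2.84 without 3 d pool 2. The number called lower was then 3 and 14. Lipocalin 2 (Lcn2), an iron-scavenging protein that stressed muscle can make as well, had 3.81 and 3.79 at 10 d, against 6.92 and 5.92 at 3 d (-2.62 ± 0.31). Csf3r, the receptor of granulocyte colony-stimulating factor, had 3.29 and 3.31 at 10 d, against 4.74 and 4.54 at 3 d (-1.34 ± 0.13). Both were called whichever pool was left out (adjusted p up to 0.0295). S100a8, a calcium-binding alarmin of neutrophils, had 0.86 and 0.93 at 10 d, against 5.45 and 2.05 at 3 d, and did not pass (adjusted p = 0.0839). The platelet chemokine Pf4, the 1 called gene among 5 of red cells and platelets, had 4.35 and 4.62 at 10 d, against 6.47 and 6.04 at 3 d (-1.77 ± 0.17). None of 13 lymphocyte genes, 7 mast cell genes or 12 interferon response genes was called by limma, with medians of 0.03, -0.04 and -0.20. The largest changes there were -0.58 in the B cell gene Cd79a, -0.33 in the IgE receptor subunit Fcer1a and -0.76 in the antiviral protein Bst2. The level of lymphocyte genes was low in all 4 pools, with a mean of 1.52 and 1.56 at 10 d and 1.52 and 1.62 at 3 d.

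Collagen transcripts were high at both times. Among 28 genes of the fibrillar and interstitial matrix, Col11a1 rose and tenascin C (Tnc) fell, and the median change was 0.43. The share called, 7.14%, was near the 6.08% over all genes. Col11a1, a minor fibrillar collagen of cartilage and young tendon, had 5.44 and 7.04 at 10 d, against 4.37 and 3.88 at 3 d (2.12 ± 0.47, adjusted p = 0.0350). Its 10 d pools were unequal, it ranged from 1.32 to 2.91 when single pools were left out, and it was lost without either 3 d pool or 10 d pool 2. Tnc, a glycoprotein of healing matrix, had 7.06 and 8.27 at 10 d, against 9.88 and 9.71 at 3 d (-2.12 ± 0.32), with a range of -2.73 to -1.52, and was lost without 3 d pool 1 (adjusted p up to 0.164 for the pair). The main collagens did not pass: Col1a1 had 10.39 and 11.25 at 10 d, against 10.31 and 10.17 at 3 d (0.58 ± 0.24), and Col3a1 9.77 and 10.57 at 10 d, against 9.87 and 9.77 at 3 d (0.35 ± 0.23). Col14a1, which decorates collagen fibrils, had 6.74 and 7.66 at 10 d, against 6.08 and 6.24 at 3 d (1.04 ± 0.28, adjusted p = 0.0656). Without overload these genes were far lower: Col1a1 was 2.24 higher at 3 d and 2.83 higher at 10 d, and Col3a1 3.02 and 3.37 higher. Periostin (Postn), a matrix protein of healing tissue, was 4.50 and 4.41 higher. These counts moved with the 10 d pools: without 10 d pool 1, 10 matrix genes rose and 1 fell (median 0.74), and without 10 d pool 2 none rose and 3 fell (median 0.02).

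Changes of basement membrane genes were more even. Of 14 measured, 4 rose, and the median was 0.54. In 13 both 10 d pools lay above both 3 d pools, against 24.6% of all genes. The laminin chain Lamb1 had 7.48 and 7.75 at 10 d, against 6.68 and 6.76 at 3 d (0.89 ± 0.16). Nidogen 1 (Nid1), which links laminin to collagen IV, had 9.78 and 10.15 at 10 d, against 9.28 and 9.16 at 3 d (0.74 ± 0.15), and its second probe set gave 0.84. Nid2 (0.66 ± 0.14) and Lama2, the laminin chain of muscle fibres (0.57 ± 0.13), rose by less. None of the 4 was called by limma without 3 d pool 1, 3 d pool 2 or 10 d pool 2 (adjusted p up to 0.173), and the list median ran from 0.40 to 0.66. Among 14 elastic fibre genes, Fbln5, which assembles elastin, rose by 0.96 ± 0.18 and Ltbp4, which holds latent TGF-beta in the matrix, by 0.90 ± 0.12 (7.89 and 7.82 at 10 d, against 6.98 and 6.94 at 3 d). These 2 are 14.3% of the list, against 6.08% of all genes. Fbln5 was lost without 3 d pool 2 or either 10 d pool and Ltbp4 without 3 d pool 1 (adjusted p up to 0.107). Without 10 d pool 1, 4 elastic fibre genes rose, and without 10 d pool 2, 1 rose and 1 fell. Fbn2, a fibrillin of growing tissue, had 3.79 and 6.13 at 10 d, against 3.38 and 3.69 at 3 d, and did not pass.

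Few genes of collagen maturation were called (4.76%, under the 6.08% over all genes), while matrix proteases and inhibitors moved in both directions. Lox, which cross-links collagen, was the 1 of 21 collagen maturation genes called, with 7.21 and 8.52 at 10 d against 9.48 and 9.71 at 3 d (-1.73 ± 0.36). It ranged from -2.39 to -1.07 and was lost without either 3 d pool or 10 d pool 1 (adjusted p up to 0.130). Plod1, a lysyl hydroxylase, differed by 0.48 ± 0.13 and Loxl3 by -0.60 ± 0.25, neither past the test. Without 10 d pool 2, 3 collagen maturation genes fell. Of 21 matrix proteases and inhibitors, 2 rose and 2 fell. The gelatinase Mmp2 had 9.49 and 10.40 at 10 d, against 8.25 and 7.99 at 3 d (1.82 ± 0.26), and Timp3, a matrix-bound inhibitor, had 8.49 and 8.58 at 10 d, against 7.70 and 7.83 at 3 d (0.77 ± 0.13). The inhibitor Timp1 had 5.20 and 6.18 at 10 d, against 7.92 and 7.59 at 3 d (-2.07 ± 0.39), and the leukocyte protease Adam8 2.94 and 3.27 at 10 d, against 5.51 and 4.76 at 3 d (-2.03 ± 0.26). Adam8 was called whichever pool was left out, Mmp2 was lost without 3 d pool 2, Timp3 without 3 d pool 1 or 10 d pool 2, and Timp1 without either 3 d pool or 10 d pool 1 (adjusted p up to 0.124). Without 10 d pool 1, 4 genes of the protease list rose and 1 fell, and without 10 d pool 2, 1 rose and 3 fell.

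Tendon and fibroblast genes gave some large rises. Tnmd, a membrane protein of tendon cells, had 8.03 and 9.12 at 10 d, against 6.12 and 5.77 at 3 d (2.63 ± 0.38, 6.18-fold), and was lost without either 3 d pool at an adjusted p of up to 0.0550. In the same list of 18 tendon and cartilage genes the joint lubricant Prg4 fell, with 8.24 and 8.55 at 10 d against 10.45 and 10.30 at 3 d (-1.99 ± 0.17), whichever pool was left out. The tendon transcription factor Scx had 5.93 and 6.24 at 10 d, against 6.88 and 6.82 at 3 d, and did not pass (adjusted p = 0.0614). Comp, a cartilage matrix protein, had 5.89 and 7.08 at 10 d, against 6.71 and 5.42 at 3 d, with overlapping groups. Tnmd and Prg4, the 2 calls, are 11.1% of the list, against 6.08% of all genes. Without 10 d pool 1, 5 members rose and 1 fell, and without 10 d pool 2, 1 rose and 2 fell. Of 16 genes of fibroblasts and fibro-adipogenic progenitors, 3 rose and none fell (18.8% called, median 0.35). Clec3b, tetranectin, had 4.77 and 4.96 at 10 d, against 3.06 and 2.87 at 3 d (1.89 ± 0.24), and Pi16, a marker of universal fibroblasts, had 6.65 and 7.06 at 10 d, against 5.51 and 5.46 at 3 d (1.37 ± 0.17). Both were called whichever pool was left out. Smoc2, a calcium-binding matrix protein, rose by 0.63 ± 0.12 and was lost whichever pool was left out (adjusted p up to 0.111). The median of this list was 0.53 without 10 d pool 1 and 0.14 without 10 d pool 2.

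The PDGF system, the target of the inhibitor used in other pools, had no member called by limma. Pdgfra, the receptor of fibroblasts, had 7.94 and 8.32 at 10 d, against 7.82 and 7.71 at 3 d (0.37 ± 0.16, adjusted p = 0.251). Pdgfrb, the receptor of pericytes, had 7.68 and 7.98 at 10 d, against 7.53 and 7.22 at 3 d (0.45 ± 0.16, adjusted p = 0.150). Pdgfc had 5.12 and 6.15 at 10 d, against 6.39 and 6.32 at 3 d (-0.72 ± 0.32). Groups did not overlap for 4 of the 6 PDGF genes in the higher and 1 in the lower direction, against 24.6% and 24.2% of all genes. Changes of the other ligands were 0.40 ± 0.17 in Pdgfd, 0.23 ± 0.15 in Pdgfa and -0.05 ± 0.22 in Pdgfb, and none of the 6 was called whichever pool was left out. With an intensity trend in limma's moderation Pdgfrb passed (adjusted p = 0.0420).

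Myogenic transcription factors fell while 1 developmental myosin rose. Of 17 satellite cell and fusion genes, 4 fell and 2 rose. With only the 4 pools in the fit, 1 of the 17 was called higher and 0 lower. Myod1, which commits cells to muscle, had 5.07 and 4.86 at 10 d, against 6.72 and 6.16 at 3 d (-1.48 ± 0.22). Myog, which drives differentiation, had 5.33 and 5.93 at 10 d, against 7.02 and 7.25 at 3 d (-1.51 ± 0.27), and Myf6, the factor of mature fibres, had 9.73 and 9.88 at 10 d, against 10.56 and 10.50 at 3 d (-0.73 ± 0.15). The laminin receptor Itga7 fell by 1.11 ± 0.16. Higher at 10 d were Calcr, the calcitonin receptor of quiescent satellite cells, with 3.30 and 3.62 at 10 d against 1.61 and 1.92 at 3 d (1.70 ± 0.34), and the Notch target Heyl (0.88 ± 0.15). Each of these 6 lost its call without 3 d pool 1, and Calcr and Myf6 whichever pool was left out. Myog was also lost without 3 d pool 2 or 10 d pool 1, and Heyl without 10 d pool 1. Pax7, the marker of satellite cells, had 2.77 and 3.81 at 10 d, against 3.77 and 3.16 at 3 d, and the fusion protein Mymk 7.08 and 7.77 at 10 d, against 7.62 and 8.17 at 3 d. Groups overlapped for both, and Mymk was 4.41 higher at 3 d and 3.94 higher at 10 d than without overload. Among 15 genes of developmental and regenerating fibres, embryonic myosin (Myh3) rose, with 8.13 and 9.11 at 10 d against 6.94 and 7.40 at 3 d (1.45 ± 0.34). The intermediate filament protein nestin (Nes) had 6.18 and 6.49 at 10 d, against 7.64 and 7.69 at 3 d (-1.32 ± 0.18), and non-muscle myosin Myh10 fell by 0.81 ± 0.17. Myh3 was lost without either 3 d pool or 10 d pool 2, Nes without 3 d pool 1 and Myh10 whichever pool was left out (adjusted p up to 0.204). In this list 4 rose and 1 fell without 10 d pool 1, and none rose and 1 fell without 10 d pool 2. Neonatal myosin Myh8 had 5.75 and 7.51 at 10 d, against 4.25 and 5.37 at 3 d, and did not pass (1.82 ± 0.53, adjusted p = 0.0869).

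Some load-sensing genes of the sarcomere fell. Of 13 genes in a list of these and sarcolipin, 6 fell and none rose, 7 did not pass, and the median was -0.28. Xirp1, an actin-binding protein of injured fibres, had 8.67 and 8.26 at 10 d, against 10.16 and 10.15 at 3 d (-1.69 ± 0.24), and Ankrd1, a titin-binding protein, had 10.61 and 10.91 at 10 d, against 12.17 and 12.18 at 3 d (-1.41 ± 0.27). Csrp3, the muscle LIM protein, had 10.69 and 10.54 at 10 d, against 11.68 and 11.65 at 3 d (-1.05 ± 0.13), and was called whichever pool was left out. Filamin C (Flnc, -0.95 ± 0.16), Ankrd2 (-0.92 ± 0.19) and the caveolar protein Cavin4 (-0.76 ± 0.12) fell, and like Xirp1 and Ankrd1 were lost without 3 d pool 1. Ankrd1, Ankrd2 and Cavin4 were also lost without 3 d pool 2. Without 10 d pool 1 Ankrd1 was lost, and without 10 d pool 2 Ankrd2, Flnc and Cavin4 were. Sarcolipin (Sln), which binds the calcium pump, had 8.52 and 8.89 at 10 d, against 7.57 and 7.82 at 3 d. It did not pass (1.01 ± 0.38, adjusted p = 0.174), and was 4.61 higher at 3 d and 5.62 higher at 10 d than without overload.

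Some contractile genes of mature fibres rose, of slow and of fast fibres. Of 12 slow fibre genes, Myh7, Tnnt1 and Tnnc1 rose and none fell (median 0.24). Slow myosin (Myh7) had 7.08 and 6.37 at 10 d, against 4.44 and 4.55 at 3 d (2.23 ± 0.41, 4.68-fold), and was lost without either 3 d pool or 10 d pool 1. Slow troponin T (Tnnt1) had 7.27 and 7.29 at 10 d, against 5.92 and 5.95 at 3 d (1.35 ± 0.15), and was called whichever pool was left out. Slow troponin C (Tnnc1) rose by 1.01 ± 0.20 and was lost whichever pool was left out (adjusted p up to 0.124). Relative to muscle without overload, Myh7 was 1.40 lower at 3 d and differed by 0.83 at 10 d without passing, and Tnnt1 was 0.65 higher at 3 d and 2.0 higher at 10 d. Of 17 fast fibre genes, 6 rose (median 0.27). In 16 both 10 d pools lay above both 3 d pools, against 24.6% of all genes. Myoz3, a calcineurin-binding Z-disc protein, had 7.64 and 7.54 at 10 d, against 6.40 and 6.76 at 3 d (1.01 ± 0.16), and Mylk2, the kinase of the fast myosin light chain, had 9.77 and 9.60 at 10 d, against 8.62 and 8.91 at 3 d (0.92 ± 0.16). Mybpc2 (0.77), the calcium buffer parvalbumin (Pvalb, 0.76), Myoz1 (0.73) and Actn3 (0.55) rose by less. None of the 6 was called by limma without 3 d pool 1 or without 10 d pool 1 (adjusted p up to 0.142). The adult fast myosins, bright at both times, did not pass, with 0.18 ± 0.13 in Myh2, 0.16 ± 0.13 in Myh1 and 0.09 ± 0.12 in Myh4.

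Some transcripts of energy metabolism rose. Of 20 genes of glycolysis and glycogen, 6 rose and none fell (median 0.46). Glycerol-3-phosphate dehydrogenase (Gpd1) had 8.03 and 7.92 at 10 d, against 6.00 and 6.31 at 3 d (1.82 ± 0.17, 3.53-fold), and a dimmer probe set gave 1.05. The catalytic subunit of phosphorylase kinase (Phkg1) had 9.59 and 9.57 at 10 d, against 7.99 and 8.30 at 3 d (1.43 ± 0.15). Both were called whichever pool was left out. Pfkfb3, which makes an activator of phosphofructokinase (1.13 ± 0.26), Phka1 (0.93 ± 0.14), muscle glycogen phosphorylase (Pygm, 0.64 ± 0.12) and Tpi1 (0.60 ± 0.12) rose too. Pfkfb3, Pygm and Tpi1 were lost whichever pool was left out, and Phka1 without 3 d pool 1 or 10 d pool 1. Gpd1 was 2.18 lower at 3 d than without overload and differed by -0.36 at 10 d without passing.

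Changes of mitochondrial and fatty acid genes were mostly small and positive. Called higher were 9.68% of oxidative phosphorylation, 16.7% of tricarboxylic acid cycle and 23.1% of fatty acid genes, against 2.7% of all genes. With an intensity trend in the moderation, 17, 13 and 17 members of these lists were called higher, and 1170 of all genes. All 31 oxidative phosphorylation genes had a positive change, 25 of them with pools that did not overlap (24.6% of all genes). Of the 31, 3 rose (median 0.41). They were Cox7a1, the muscle form of a cytochrome oxidase subunit, with 9.31 and 8.96 at 10 d against 8.35 and 8.12 at 3 d (0.90 ± 0.17), Uqcrfs1 (0.82 ± 0.18) and Sdhb (0.61 ± 0.15). All 18 genes of the tricarboxylic acid cycle and pyruvate oxidation had a positive change and 3 rose (median 0.42): Idh2 (0.89 ± 0.15), citrate synthase (Cs, 0.64 ± 0.14) and Ogdh (0.62 ± 0.13). Of 26 genes of fatty acid oxidation and lipid handling, 6 rose and none fell (median 0.55), and 25 changes were positive, the exception being Acadl at -0.17 ± 0.13. The short-chain dehydrogenase Acads had 8.30 and 7.93 at 10 d, against 7.06 and 7.16 at 3 d (1.01 ± 0.16). Hadhb (0.91), lipoprotein lipase (Lpl, 0.66), Acadvl (0.63), Hadh (0.63) and the carnitine transferase Cpt2 (0.62) rose by less. None of these 12 kept its call without 3 d pool 1 or without 10 d pool 1 (adjusted p up to 0.206), although the 3 medians stayed between 0.27 and 0.66. The regulators Ppargc1a (0.51 ± 0.29) and Ppara (0.97 ± 0.45) did not pass. Against muscle without overload, 22 of 31 oxidative phosphorylation genes were lower at 3 d (8.18% of all genes were) and 1 at 10 d (1.23%), and 22 of 26 fatty acid genes were lower at 3 d and 4 at 10 d. Those counts come from comparisons that share pools with the main one.

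**Figure D4:**
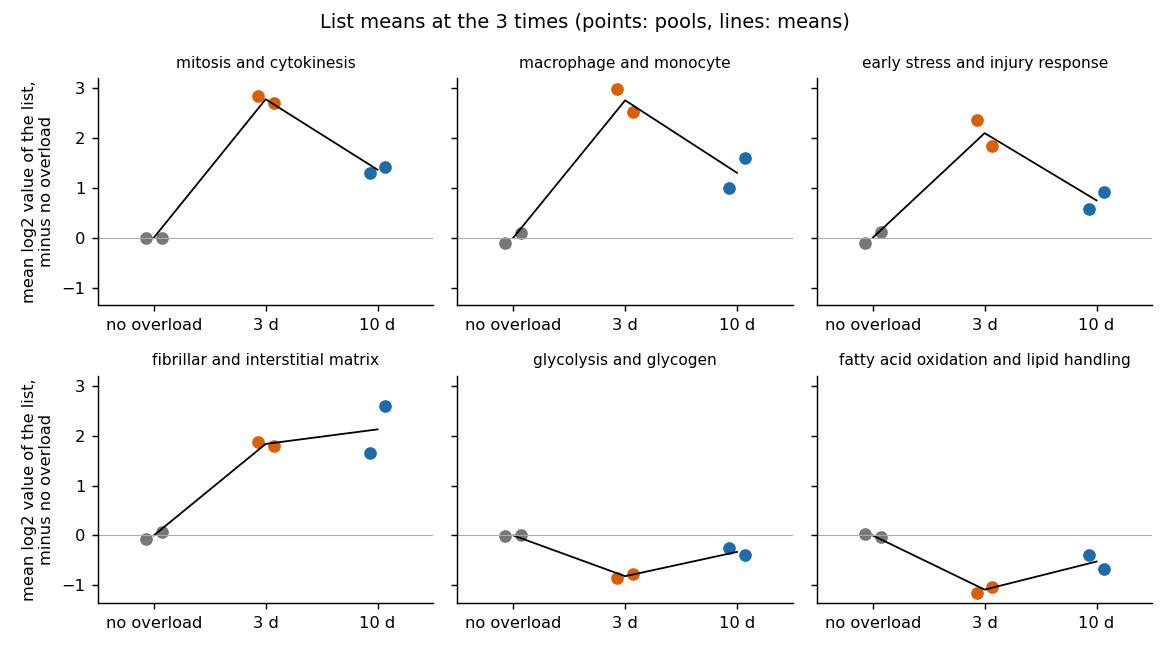
Mean log2 value over the members of 6 gene lists, minus the mean of the 2 pools without overload (vertical axis), without overload, after 3 d and after 10 d of overload (horizontal axis). Points are pools and lines join the means. Mitosis, macrophage and early stress genes are highest at 3 d, glycolysis and fatty acid genes are lowest at 3 d, and the 10 d pools of the matrix list are unequal.

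Among 11 genes listed for creatine and adenine nucleotide buffering, Gamt rose and Ampd3 fell. Smox, listed with them though it acts on polyamines, rose as well. Spermine oxidase (Smox), a polyamine enzyme, had 7.07 and 7.10 at 10 d, against 5.19 and 5.38 at 3 d (1.80 ± 0.15), and was called whichever pool was left out. It was 3.08 lower at 3 d and still 1.28 lower at 10 d than without overload. Gamt, the last enzyme of creatine synthesis, had 7.80 and 7.88 at 10 d, against 6.41 and 6.81 at 3 d (1.23 ± 0.18), and the AMP deaminase Ampd3 had 7.54 and 7.66 at 10 d, against 8.73 and 8.63 at 3 d (-1.08 ± 0.17). Gamt and Ampd3 were lost without 3 d pool 1, and Ampd3 also without 10 d pool 1.

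Of 19 genes of atrophy and autophagy, 7 rose and 1 fell (median 0.31), and without 10 d pool 1 none was called by limma. The transcription factor Klf15 had 5.85 and 5.16 at 10 d, against 4.60 and 4.17 at 3 d (1.12 ± 0.24), and the ubiquitin ligase atrogin-1 (Fbxo32) had 9.46 and 9.23 at 10 d, against 8.34 and 8.63 at 3 d (0.86 ± 0.18). The autophagosome protein Map1lc3a (1.05 ± 0.21), the autophagy kinase Ulk1 (0.86 ± 0.16) and Fbxo21 (0.82 ± 0.19) rose, and Gabarapl1, a relative of Map1lc3a, fell by 0.83 ± 0.14. All 6 were lost without 3 d pool 2 and without 10 d pool 1 (adjusted p up to 0.177). Of 11 genes of the neuromuscular junction, 2 rose and 1 fell. The adult acetylcholine receptor subunit Chrne had 6.54 and 6.61 at 10 d, against 4.71 and 4.96 at 3 d (1.74 ± 0.16, 3.35-fold), and was called whichever pool was left out. Acetylcholinesterase (Ache) rose by 1.17 ± 0.22 and the receptor kinase Musk fell by 0.75 ± 0.13, and both were lost without either 3 d pool. Ache was also lost without 10 d pool 2, and Musk without 10 d pool 1. Chrne was 1.64 lower at 3 d than without overload and differed by 0.10 at 10 d without passing.

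Of clock genes, most of those called were higher at 10 d. Of 16 measured, 5 rose and 1 fell. Dbp, an output gene of the clock, had 9.06 and 9.03 at 10 d, against 7.11 and 7.86 at 3 d (1.56 ± 0.24), and Per3, a repressor of the clock, had 7.03 and 6.89 at 10 d, against 5.21 and 5.77 at 3 d (1.47 ± 0.25). The repressors Ciart (1.29 ± 0.29) and Cry2 (0.86 ± 0.14) and the output gene Tef (0.78 ± 0.15) rose, and the activator Arntl had 6.26 and 6.21 at 10 d, against 7.64 and 6.92 at 3 d (-1.05 ± 0.24). All 6 lost their calls without 3 d pool 1 and without 10 d pool 1 (adjusted p up to 0.191). The sources used here give no time of day at sampling, and their part in the result was not tested. The E-box (CACGTG), bound by Arntl with Clock, stood in 2 of the 5 promoters of genes that rose (40.0%), Ciart and Tef, against 9.19% of 16990 genes, a motif chosen after the values were seen. Over all 15 clock genes with a window it stood in 5 (33.3%). Ciart (chr3:95882179-95882478, minus strand) is shown because it held 3 of them, in capitals.
Ciart: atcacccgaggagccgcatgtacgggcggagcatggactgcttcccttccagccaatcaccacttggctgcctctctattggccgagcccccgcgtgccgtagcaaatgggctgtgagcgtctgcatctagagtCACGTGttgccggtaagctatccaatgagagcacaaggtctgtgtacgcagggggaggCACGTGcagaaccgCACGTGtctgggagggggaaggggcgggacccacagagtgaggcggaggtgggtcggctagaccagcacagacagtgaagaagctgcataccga

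Growth factors gave 1 large rise. Igf2 had 7.31 and 7.83 at 10 d, against 5.5 and 5.49 at 3 d (2.07 ± 0.18, 4.21-fold, adjusted p = 0.00220), and was called whichever pool was left out. Igfbp5, a binding protein of IGFs, had 9.90 and 10.21 at 10 d, against 9.16 and 9.40 at 3 d (0.77 ± 0.16), and was lost whichever pool was left out (adjusted p up to 0.165). These 2 were the called members among 15 IGF genes (13.3%, against 6.08% of all genes). Igf1 had 6.71 and 7.62 at 10 d, against 6.86 and 6.87 at 3 d, with overlapping groups. Of 25 genes of the TGF-beta, BMP and myostatin axis, 3 rose and 2 fell (20.0% called). Gdf11, a close relative of myostatin, had 7.13 and 7.37 at 10 d, against 5.82 and 6.20 at 3 d (1.24 ± 0.18), and the activin receptors Acvr1b (0.99 ± 0.19) and Acvr2b (0.95 ± 0.22) rose as well. Tgfb1 had 6.73 and 7.16 at 10 d, against 7.87 and 7.67 at 3 d (-0.83 ± 0.17), and the activin subunit Inhba fell by 0.69 ± 0.15. None of the 5 was called by limma without 3 d pool 1. Inhba was lost whichever pool was left out, and Acvr1b, Acvr2b and Tgfb1 also without 3 d pool 2 or 10 d pool 1. Myostatin (Mstn) had 7.96 and 7.69 at 10 d, against 7.37 and 7.91 at 3 d. Its groups overlapped, and it was 1.35 lower at 3 d and 1.17 lower at 10 d than without overload.

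Vessel, nerve sheath and fat genes gave few calls, and the endothelial share called (6.25%) was near the 6.08% over all genes. The adipocyte share, 10.0%, came from 1 called gene. Of 16 endothelial genes, the receptor Tie1 rose, with 6.42 and 6.29 at 10 d against 5.5 and 5.12 at 3 d (1.05 ± 0.20, lost whichever pool was left out at an adjusted p of up to 0.119), and the list median was 0.32. Aplnr, the apelin receptor (1.0 ± 0.31), and the tight junction protein Cldn5 (0.82 ± 0.21) did not pass. No member was called by limma among 17 angiogenic factors (median -0.08), 12 pericyte and smooth muscle genes (median 0.21) or 8 Schwann cell and myelin genes (median 0.01). Without 10 d pool 2, 3 angiogenic factors were called lower. With an intensity trend in the moderation, 3 angiogenic factors and 2 pericyte genes were called, and the pericyte median was 0.09 without 3 d pool 1. The largest changes in these lists were -1.41 ± 0.36 in Angptl4, an inhibitor of lipoprotein lipase, 0.65 ± 0.26 in Higd1b and 0.36 ± 0.17 in Cnp, an enzyme of myelin. Hepatocyte growth factor (Hgf) had 2.46 and 3.86 at 10 d, against 4.44 and 4.58 at 3 d, and did not pass. Of 10 adipocyte genes, Dgat2, which completes triglyceride synthesis, rose by 1.20 ± 0.21 and was lost without either 3 d pool or 10 d pool 1 (adjusted p up to 0.0829).

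The same times were compared in the 4 pools that received the PDGF inhibitor, whose means enter no change of the main comparison. Both comparisons came from 1 fit over all 10 pools and share its estimate of each gene's spread, so their calls are not independent. With inhibitor, 1031 genes were called (4.65%), 440 higher (1.98%) and 591 lower (2.66%) at 10 d. Of the 598 genes that rose without inhibitor, 562 (94.0%) had a positive change with it, against 46.6% of all genes, and 226 were called higher. Of the 750 that fell, 727 (96.9%) had a negative change with inhibitor, against 53.4% of all genes, and 369 were called lower. None of the 1348 was called in the opposite direction. The test of the difference between these changes called 0 of 22180 genes by limma (smallest adjusted p = 0.516), with 1434 at an unadjusted p under 0.05. It called 14 genes without 3 d pool 2 and 2 without 10 d pool 1, and over all pools no single gene's difference was detectable. Sprr1a fell by 5.58 without and by 5.21 with inhibitor, Cd68 by 2.62 and by 3.16, and Top2a by 1.93 and by 2.38. Ky rose by 2.92 and 3.03, Gpd1 by 1.82 and 2.08, and Chrne by 1.74 and 2.05. Some genes called without inhibitor were near 0 with it, with the difference not past the test: Lcn2 changed by -2.62 without and -0.48 with inhibitor, Pf4 by -1.77 and -0.04, Arg1 by -1.76 and -0.33, Fbln5 by 0.96 and -0.16 and Lamb1 by 0.89 and -0.07. The basement membrane list had a median of 0.54 with 4 rises without inhibitor, and of 0.02 with no rise with it. Neutrophil genes had a median of -1.77 without and 0.37 with inhibitor, and the first of these values rests on 3 d pool 1, as given above.

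**Figure D5:**
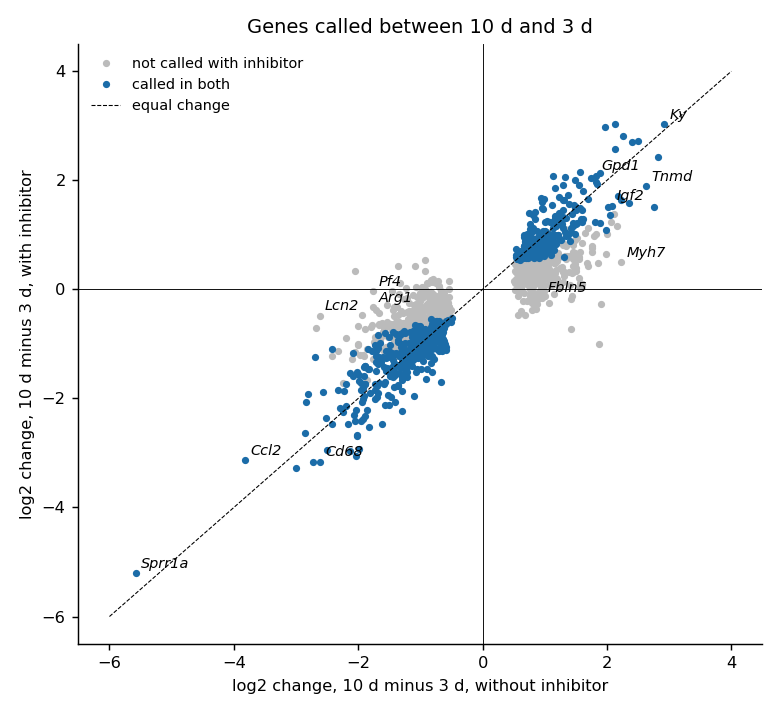
Change between 10 d and 3 d of overload of the 1348 genes called without inhibitor (horizontal axis, log2), against their change in the pools with inhibitor (vertical axis, log2). Blue points were called in both, grey points were not called with inhibitor, and the dashed line marks equal change. Most points have the same sign on both axes, and Lcn2, Pf4 and Arg1 lie near 0 on the vertical axis.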

How the data were processed

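RNA of mouse plantaris was measured on 10 arrays, each a pool of equal RNA from 4 muscles. The authors deposited log2 expression values of 41345 probe sets. RMA, oligo and limma are named, with no version, per the submitters' processing notes. RMA quantile-normalizes arrays and compresses changes of dim genes. Per the labels, both the WT PLUS and the NuGEN Ovation PicoSL kits are named for each array, so the kit used is not known. Groups came from the sample titles, and nothing pairs pools across groups.

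Of the probe sets, 23521 had 1 symbol, 1814 several and 16010 none listed, which left 22180 genes (the brightest probe set where 1082 genes had several). No dim gene was removed. limma 3.58.1 in R 4.3.3 fitted 1 coefficient per group over the 10 arrays (5 residual and 3.58 prior degrees of freedom), with Benjamini-Hochberg adjustment over all genes. The number of arrays limits the precision. The steps were tested on simulated data.

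The members and the 43 gene lists were chosen with earlier results of these data known. Named are up to 15 of the largest rises and of the largest falls with pools that did not overlap, up to 6 called members of a list, or 3 members by size where fewer were called, and the PDGF genes. Symbols without an assigned name, and genes of olfactory and vomeronasal receptors, antigen receptor segments and small RNAs were left out of the largest changes. Others, such as Elane, Mpo and Ccl8, were named after their values were seen. Alternatives were other moderation, filters, probe set rules, scalings and leaving out each pool.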

Additional observations from a re-analysis of the deposited data

Results flagged for a closer look

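Probe sets that name no single gene were not used in any comparison above, but some changed between 10 d and 3 d of overload. In a limma fit over all 41345 probe sets, 82 of 16010 probe sets that the annotation does not list were called, 37 higher and 45 lower at 10 d (0.512%). Of 1814 probe sets with several symbols, 22 were called, 9 higher and 13 lower (1.21%). Among probe sets with exactly 1 symbol the share was 1.85%. What the unlisted probe sets measure was not tested.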

How the results depend on the processing

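The number of genes called between 10 d and 3 d of overload was 1348. It became 202 with only the 4 pools in the fit, 2450 with an intensity trend in the moderation, 2295 among genes above the median level, 618 with a log2 change of at least 1 as well, and 428 with moderation and adjustment over every probe set, an alternative chosen after seeing the data. Leaving out single pools gave 218 to 878. With inhibitor, 1031 genes became 2010, 1873, 489 and 300 with the trend, bright genes, the size limit and every probe set, and 123 to 319 without single pools. The 0 genes that differed between these changes became 0 to 14. Against no overload, the 1138 genes at 10 d became 2097, 1900, 649 and 389 in the same order, and 259 to 1232 without single pools, and the 3881 at 3 d became 1754 with the size limit and 2146 to 2636 without single pools. Shifting arrays to a common median moved the split from 865 higher and 273 lower to 678 and 896 at 10 d, and from 2066 and 1815 to 1567 and 3295 at 3 d. It moved the median of all genes to -0.21 and -0.23, so changes against no overload are relative to that shift. Of 728 listed genes, 179 were called, 54 with the 4 pools alone, 308 with the trend, 107 with the size limit, 83 with every probe set and 42 to 139 without single pools. Of 163 named called genes, 41 were called whichever pool was left out and 34 were lost whichever pool was left out, and no value reversed. No paired analysis was possible because the pool numbers are names only and the labels pair no pools across groups. Dim genes near the lower end of the scale limit what these arrays can show.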

Other observations

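Genes grouped by family after their values were seen gave further shifts between 10 d and 3 d of overload. Some, such as Col11a1, are also in the lists above. No family was tested as a set, and the calls in each stand beside the 6.08% of all genes. Of 12 Toll-like receptor genes, 5 fell (Tlr1, Tlr4, Tlr7, Tlr8 and Tlr13, the largest Tlr13 by 1.89 ± 0.28) and none rose. Of 20 Ms4a genes, membrane proteins mostly of blood cells, 5 fell, led by Ms4a6c (-2.23 ± 0.36). Of 15 genes of leukotriene and prostaglandin synthesis, Alox5ap (-1.72 ± 0.22), Alox5 (-1.65 ± 0.18) and Tbxas1 fell. Among 19 genes of cholesterol synthesis and uptake, Cyp51 (-1.80 ± 0.18), Sqle (-1.42 ± 0.31), Srebf2 and Msmo1 fell. Of 17 tubulins, 5 fell, most Tubb6 (-2.19 ± 0.38), which had 7.01 and 7.64 at 10 d against 9.63 and 9.40 at 3 d. Tubb6 ranged from -2.50 to -1.88 when single pools were left out, and was lost without either 3 d pool or 10 d pool 1. Of 18 Asb genes, adaptors of ubiquitin ligases, Asb2, Asb14, Asb15, Asb16 and Asb18 rose and Asb5 fell (-1.14 ± 0.14). Of 44 collagen chains, Col6a6 (1.59 ± 0.24) and Col22a1 (1.57 ± 0.24), a collagen of the junction of muscle and tendon, rose beside Col11a1. Those 3 are 6.82% of the collagen chains, near the 6.08% over all genes. Of 38 proteasome subunits, Psmd11 and Psmd14 fell (5.26%, under that share).

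Of 480 microRNA genes, read from probe sets named for them, 9 rose and 2 fell (2.29%, under the 6.08% over all genes). Mir1a-1 (1.5 ± 0.16) and Mir133a-2 (1.22 ± 0.21), neighbours that muscle transcribes together, rose, and with inhibitor they changed by 1.20 and 0.99. Mir323 (1.61 ± 0.25), Mir487b (1.57 ± 0.22) and Mir379 (0.77 ± 0.18) rose as well, from dim levels. Mir379 had 1.60 and 1.37 at 10 d, against 0.57 and 0.86 at 3 d, near the lower end of the scale. At 3 d Mir323 had 1.92 and 2.35, and Mir487b 2.16 and 2.11. All 3 lie on chromosome 12 between Dlk1 and Dio3, an imprinted domain in RefSeq's gene order, with 43 microRNA genes measured. Of these 43, 36 had a positive change (50.8% of all genes had one) with a median of 0.47, and no other was called. This rests on 10 d pool 2: without it 23 of the 43 were positive with a median of 0.05, and without 10 d pool 1, 39 were, with a median of 0.75. Without 10 d pool 2, Mir323 changed by 1.22, Mir487b by 1.57 and Mir379 by 0.89, with no test. With inhibitor 23 of the 43 were positive, the median was 0.04, and none was called by limma. Mir323 changed by 0.10, Mir487b by 0.04 and Mir379 by -0.06 with inhibitor, and no difference between the changes was past the test for them. Meg3, a long RNA of that domain, changed by 0.11 ± 0.20. Mature sequences of the 3 called genes are given, 1 per gene, with the seed (bases 2 to 8) in capitals. They are from RefSeq (GRCm38.p6, chromosome 12, plus strand), and the seeds differ. Mir323 and Mir379 each have another mature sequence, which is not shown. Whether any mature sequence changed was not tested.
mmu-miR-323-3p: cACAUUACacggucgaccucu
mmu-miR-487b-5p: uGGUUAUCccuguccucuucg
mmu-miR-379-5p: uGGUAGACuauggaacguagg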
